A study of Mus musculus with 6 samples.

Results

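A gene on an exon array is often read by several probes, each of which stands for a transcript cluster, a group of exons that the array design treats as 1 unit. Where a gene had 2 or more probes of its own, the probe with the highest mean signal stood for the gene, and every other probe is called secondary here. There were 5158 secondary probes of 3063 genes among the 34502 probes of the table. Of these genes, 2100 had 2 own probes, 602 had 3, 341 had 4 to 9 and 20 had 10 or more. The probes were chosen by their mean log2 signal over all 6 arrays, so their brightness is no result, while the difference between genotypes was not used for the choice. The brightest and the second probe lay within 0.1 on the log2 scale in 287 genes, and for the heat shock protein gene Hspa8, where they were closest, both means were 12.14.

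Gene expression was measured in 3 samples of purified pancreatic islets of wild-type (WT) mice and 3 of mTR-/-G4 mice, the question being how short telomeres change the genes that islets express. mTR-/-G4 mice carry a null allele of the telomerase RNA gene on both chromosomes, in the whole animal, and are generation 4 bred without it. All mice were C57BL/6 males of 15 months, and each of the 6 samples was hybridized to 1 array. The 6 samples came from 3 mice of each genotype, named a, b and c. Terc, the gene knocked out, shares its probe with another symbol, and the genotypes were therefore not checked on it.

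Telomerase adds repeats to chromosome ends, and without it telomeres shorten with each generation until they act as damaged DNA. Islets release insulin when calcium enters the beta cell, which depends on ion channels, calcium exchangers and the proteins that dock secretory granules. Many genes of this kind have alternative promoters, exons and ends, and parts of 1 gene can therefore differ in level.

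The islet hormone genes were bright in every sample. Ins2, which encodes insulin, was at log2 12.21 to 12.32 in WT and 12.05 to 12.25 in mTR-/-G4 islets, and neither it nor Gcg (glucagon) or Sst (somatostatin) passed the test. A probe was called higher or lower when it differed by over 1.5-fold with an unadjusted limma p under 0.05, which is the threshold of the study. Of all 34502 probes, 2.62% were called higher and 3.61% lower in mTR-/-G4, 23.0% had an unadjusted p under 0.05, and 1 probe (0.00290%) had an adjusted p under 0.05. The genotypes did not overlap in 35.2% of all probes and in 29.8% of the secondary probes, so a lack of overlap is common here. The mean log2 signal of 26 acinar cell markers was 7.32 to 8.20 in WT and 8.76 to 9.75 in mTR-/-G4 samples, with 22 of the 26 called higher. No acinar marker has a secondary probe. Of other cell types, 1 of 15 duct, 3 of 22 endothelial, 0 of 25 leukocyte, 1 of 22 stellate and 0 of 17 neuron markers were called. The median difference over all probes was 0.10 on the log2 scale, and the differences given here are not corrected for that shift. The interquartile range of all probes was 2.05 in mTR-/-G4 sample b and 2.42 to 2.79 in the other 5 samples. In bulk islets, fewer cells of a type and less RNA per cell cannot be told apart.

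The table gives no coordinates, but its rows follow the genome, so the genes of the neighbouring rows show where a probe stands. Among genes with a single probe, 94.7% of the probes stood at their own gene's place and 1.06% elsewhere. Of the secondary probes, 3237 (62.8%) stood at their gene's place, 1198 (23.2%) among genes of another chromosome or of another part of the same chromosome, and 723 could not be settled. Of the brightest probes 69.9% stood at their gene's place. A further difference lay in the strand: 462 secondary probes, or 8.96%, stood at their gene's place among rows of the opposite strand, against 0.12% of the single probes. The label of a probe that stands elsewhere names its gene only as far as the platform annotation does.

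Secondary probes were called lower more often than higher. In mTR-/-G4 islets 421 secondary probes of 182 genes fell (8.16%) and 126 of 114 genes rose (2.44%), beside 3.61% and 2.62% of all probes of the table. Of the brightest probes of the same genes, 4.28% fell and 2.74% rose, and of the single probes 1.17% fell and 1.79% rose. Secondary probes were 14.9% of the table and 33.8% of its lower calls. No secondary probe reached an adjusted p under 0.05 by limma with Benjamini-Hochberg adjustment (smallest 0.0662), while 1202 had an unadjusted p under 0.05, and the methods' t-test gave 868 and also none after adjustment. With each array centred on its median, 72 rose and 527 fell, and without mTR-/-G4 sample a 269 rose and 515 fell. With the acinar marker mean as a covariate, 177 rose and 161 fell. That mean did not overlap between the genotypes, so a fit with it cannot tell acinar signal from genotype. In such a fit a call can also be lost through a wider error, without a smaller difference.

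The lower calls were uneven over the secondary probes. Of those standing elsewhere 16.4% fell, of those at their gene's place 5.04% fell, and of those not settled 8.58% fell. Of the 2577 secondary probes with a mean above the table median of log2 5.14, 371 fell and 45 rose, while of the 2581 others 50 fell and 81 rose. This turn with brightness was not particular to secondary probes. Of the 2204 brightest probes above that median 125 fell and 41 rose, and of the 859 others 6 fell and 43 rose. Of the 8831 single probes above it 189 fell and 151 rose, and of the 8310 others 11 fell and 156 rose. The 20 genes with 10 or more own probes held 556 secondary probes, of which 202 fell and 11 rose. Without these genes the place made less difference: 4.76% of the secondary probes at their gene's place fell and 5.37% of those elsewhere.

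**Figure D1:**
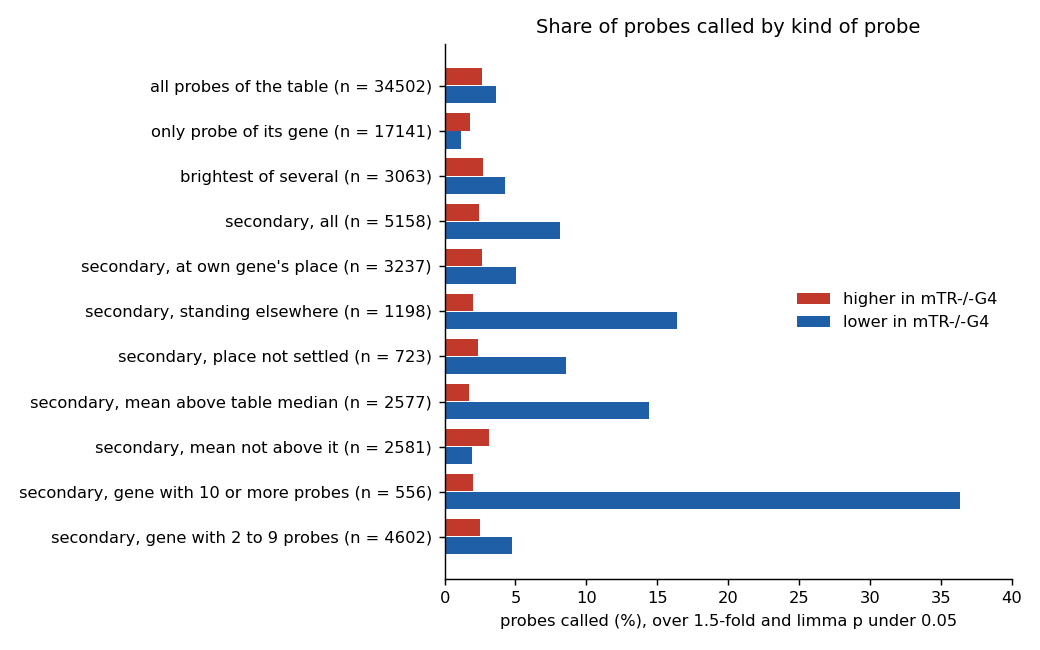
Share of probes called higher (red) or lower (blue) in mTR-/-G4 against WT islets, in percent of the probes of each kind, whose number stands beside the name. Lower calls reached 36.3% among secondary probes of genes with 10 or more probes and 4.76% among those of genes with 2 to 9.

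The genes with 3 or more secondary probes were the 341 with 4 to 9 own probes and the 20 with 10 or more. In 6 of these genes every secondary probe was called in 1 direction, and in 5 of the 6 all fell. The 6 were picked for their calls, and probes of a gene share arrays, so their agreement is no independent evidence. Probes of a gene are numbered here by brightness, probe 1 being the brightest. Kcnn3 encodes a small-conductance potassium channel opened by calcium, and all 4 of its probes stood at its own place and fell. Its probe 3 was at log2 8.68, 8.97 and 9.25 in the WT samples and 7.36, 6.57 and 8.22 in the mTR-/-G4 samples. The genotypes did not overlap, and the difference of -1.58 ± 0.39 (SE, n = 3 per genotype) had an adjusted p of 0.128 by limma with Benjamini-Hochberg adjustment. Probe 2 of Kcnn3 was at 8.79, 9.61 and 9.23 in WT and 8.40, 8.48 and 8.89 in mTR-/-G4 samples, and probe 4 at 7.77, 8.27 and 8.51 against 7.52, 7.71 and 7.54. These differences, -0.62 ± 0.23 and -0.59 ± 0.19, were smaller, and the genotypes overlapped in probe 2 and not in probe 4. The call of probe 2 was lost without WT sample b or c or mTR-/-G4 sample a or b (-0.42 to -0.61), and that of probe 4 without WT sample b or c or mTR-/-G4 sample a or c (-0.43 to -0.57).

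Kcnq1ot1 is a long noncoding RNA transcribed from the paternal copy of an imprinted region, antisense to the potassium channel gene Kcnq1. All 7 of its probes stood at its own place, and probe 1 and 4 of the 6 secondary probes fell. Probe 4 was at log2 6.83, 6.97 and 8.15 in WT and 5.46, 4.88 and 5.32 in mTR-/-G4 samples. Every mTR-/-G4 sample lay below every WT sample, with a difference of -2.09 ± 0.35 (adjusted p = 0.0933, limma with Benjamini-Hochberg adjustment), close to the -2.18 ± 0.54 of probe 1. Probes 2, 3 and 5 differed by -1.61, -1.55 and -1.89, and the call of probe 2 was lost without WT sample c (-1.42) or mTR-/-G4 sample b (-1.12) or c (-1.46). The dimmest probes 6 and 7, at mean levels under the table median, differed by -0.42 and -0.37 and did not pass. Their signal minus that of probe 1 was called higher in mTR-/-G4 samples, by 1.76 ± 0.58 and 1.81 ± 0.53. The genotypes did not overlap in either difference. In probe 7 itself every mTR-/-G4 sample also lay below every WT sample. Whether probes this dim, at means of log2 4.46 and 3.64, could show a fall as large as that of probe 1 was not tested.

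With the acinar marker mean as a covariate, none of the secondary probes of Kcnn3 and Kcnq1ot1 that had fallen was called. The differences were then 0.29, -0.66 and 0.03 for Kcnn3 probes 2, 3 and 4, and -2.44, -1.26, -1.54 and -1.04 for Kcnq1ot1 probes 2, 3, 4 and 5. The difference of Kcnq1ot1 probe 2 was larger than the -1.61 without the covariate, though not called.

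The promoters of these genes are printed because probe 1 and several secondary probes of each were called lower. Whether the promoters bear on the change was not tested. The CCAAT box (CCAAT or ATTGG) is in capitals. The motif was searched on both strands over 250 bases before and 50 after the gene's start in RefSeq, build GRCm38.p6. The Kcnn3 window is chr3:89519914-89520213 on the plus strand and the Kcnq1ot1 window is chr7:143296498-143296797 on the minus strand.
Kcnn3: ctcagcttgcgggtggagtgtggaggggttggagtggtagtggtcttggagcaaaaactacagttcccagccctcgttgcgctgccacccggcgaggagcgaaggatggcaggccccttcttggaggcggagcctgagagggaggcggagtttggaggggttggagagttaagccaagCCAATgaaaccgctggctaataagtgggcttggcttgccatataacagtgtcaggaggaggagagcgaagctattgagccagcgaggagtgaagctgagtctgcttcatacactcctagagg
Kcnq1ot1: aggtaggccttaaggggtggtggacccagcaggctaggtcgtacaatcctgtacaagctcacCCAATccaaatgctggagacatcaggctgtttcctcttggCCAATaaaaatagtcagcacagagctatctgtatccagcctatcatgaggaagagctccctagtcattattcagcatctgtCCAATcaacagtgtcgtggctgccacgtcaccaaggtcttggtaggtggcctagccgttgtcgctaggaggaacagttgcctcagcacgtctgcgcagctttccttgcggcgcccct
The CCAAT box occurs 3 times in the Kcnq1ot1 window and 1 time in that of Kcnn3, and 37.4% of 32851 promoters of this length hold it. The letters of the TATA box (TATAAA, in 13.6% of promoters) and of the GC box (GGGCGG, in 35.7%) are in neither window.

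Syne1 encodes nesprin-1, a large protein that ties the nuclear envelope to the cytoskeleton. Its probe 3 was at log2 7.01, 7.01 and 7.13 in WT and 6.16, 5.79 and 6.08 in mTR-/-G4 samples. The genotypes stood apart with little spread within each, and the difference was -1.04 ± 0.13 (adjusted p = 0.0929, limma with Benjamini-Hochberg adjustment). Probes 2 and 4 differed by -0.87 ± 0.12 and -0.80 ± 0.15 and probe 1 by -0.59 ± 0.14, all of them lower. All 3 secondary probes of Pias2, which encodes a SUMO ligase, fell (-1.33, -1.30 and -0.87), whereas its probe 1 was at 7.93 to 8.10 in WT and 7.76 to 7.95 in mTR-/-G4 samples and was not called. With the acinar marker mean as a covariate, Syne1 probes 2 and 3 (-0.90 and -1.09) and Pias2 probes 3 and 4 (-1.33 and -1.39) were still called lower, and Syne1 probe 4 (-0.70) and Pias2 probe 2 (-1.63) were not. The call of Pias2 probe 4 was lost without mTR-/-G4 sample b (-0.58). The 4 secondary probes of Gm14408, a predicted gene, differed by -1.32 to -1.63, and all but 1 of them stood at its place. The 4 of 4930470H14Rik differed by -0.70 to -1.24, and none of them was settled at its place. The call of 4930470H14Rik probe 3 was lost without WT sample c or mTR-/-G4 sample a (both -0.51). Fitted with that covariate, Gm14408 probe 3 was still called (-1.74), while its probes 2, 4 and 5 (-0.79, 0.19 and -0.98) and the 4 of 4930470H14Rik (-0.97, 0.06, -0.98 and -0.33) were not. Which of these probes share sequence with copies of the gene was not tested.

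Ahcy, which encodes the enzyme that hydrolyses S-adenosylhomocysteine, was the 1 such gene whose secondary probes all rose. Probe 4 of Ahcy, the only one at the gene's own place, was at log2 7.71, 7.38 and 6.97 in WT and 8.72, 8.77 and 8.54 in mTR-/-G4 samples. It rose by 1.32 ± 0.19 (adjusted p = 0.0929, limma with Benjamini-Hochberg adjustment), and probes 2 and 3, which stand on other chromosomes, rose by 1.38 and 1.22. With the acinar covariate probes 4, 2 and 3 were at 0.68, 0.51 and 0.28 and not called. Probe 1, also on another chromosome, was at 9.12, 9.28 and 8.84 in WT and 10.34, 8.65 and 9.76 in mTR-/-G4 samples, and was not called, with mTR-/-G4 sample b below all WT samples.

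**Figure D2:**
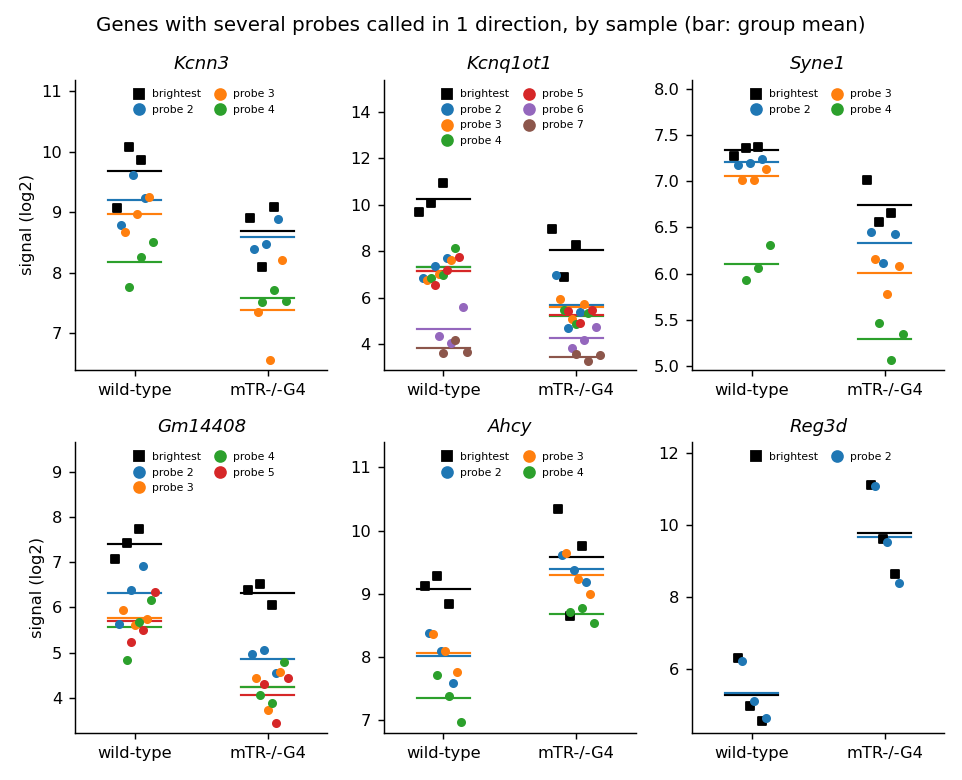
Log2 signal of every probe of 6 genes in the 3 WT and 3 mTR-/-G4 samples (points, with a bar at each group mean). Black squares are the brightest probe and coloured circles the secondary probes. In Reg3d both probes lay between 4.55 and 6.30 in WT and between 8.39 and 11.09 in mTR-/-G4 samples, and in Syne1 all 4 probes were lower in every mTR-/-G4 sample.

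The largest increase of any secondary probe was in Reg3d, one of the neighbouring Reg3 genes for secreted lectins made by the inflamed pancreas and gut. Reg3d probe 2 was at log2 6.23, 5.11 and 4.63 in WT and 11.08, 9.52 and 8.39 in mTR-/-G4 samples. It rose by 4.34 ± 0.69 (adjusted p = 0.0929, limma with Benjamini-Hochberg adjustment) beside 4.50 for probe 1, and the difference between the 2 probes was -0.16 ± 0.15 and not called. The Reg3 genes are close relatives, and whether a probe also reads its relatives was not tested. Reg3b probe 2 rose by 2.06 ± 0.78 and Reg3a probe 2 by 1.52 ± 0.63, and in both mTR-/-G4 sample a was highest, at 8.08 and 6.96. Both calls were lost without any one of the WT samples, where the differences were 1.97 to 2.17 and 1.48 to 1.60. Without mTR-/-G4 sample a Reg3b was at 1.07 and Reg3a at 0.69, both called. The acinar marker mean was also highest in mTR-/-G4 sample a, at 9.75. With that mean as a covariate Reg3d was at 0.90, Reg3b at -1.08 and Reg3a at -0.91, and none was called. Other large increases were in a probe on the opposite strand of Ehd3, a protein of endocytic recycling (1.40 ± 0.27), in Ramp1, a co-receptor of peptide hormones (1.13 ± 0.25), and in probes on other chromosomes labelled Tubb3, a neuronal tubulin (1.31 ± 0.40), and Gemin6, of the complex that assembles splicing particles (1.11 ± 0.27). In the fit with the acinar covariate Ramp1 was still called (1.42), and Ehd3 (1.44), Tubb3 (0.65) and Gemin6 (0.45) were not.

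Genes with 10 or more own probes held 48.0% of the lower calls among secondary probes, 202 of 421, and most of their probes were spread over the genome. Sgip1, a regulator of endocytosis, had 105 secondary probes, of which 1 stood at its own place and 90 elsewhere. The median signal over its secondary probes was log2 10.61, 10.83 and 11.26 in the WT samples and 10.03, 9.65 and 9.84 in the mTR-/-G4 samples. The groups did not overlap, 74 of the 105 probes fell and none rose, and the median difference was -0.80. The single secondary probe at the gene's own place differed by -0.33 and was not called.

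Slc38a6, an amino acid transporter, had 86 secondary probes, of which 75 stood elsewhere and 45 fell. Its medians were 10.87, 11.20 and 11.65 in WT and 10.65, 9.41 and 10.22 in mTR-/-G4 samples, and sample b was lowest. Without that sample 20 probes of Slc38a6 fell, while 71 of Sgip1 did. Noct, a circadian gene for nocturnin, had 81 secondary probes, and 78 stood elsewhere. Of the 81 probes 10 fell and 6 rose. The medians of Noct overlapped, at 9.38, 9.11 and 8.47 in WT and 9.41, 9.20 and 9.43 in mTR-/-G4 samples, and without sample b 6 fell and 1 rose. The direction of Noct turned with the arrays given the same distribution, where 4 fell and 11 rose.

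The other large sets differed as widely. Of Cd209c, a lectin of the C-type, 19 of 24 secondary probes fell with a median of -0.88, of Gm4759 16 of 19 with a median of -1.31, and of Gm6710 10 of 17 with a median of -1.02. Of the probes of Gm6710 16 of the 17 stood with their gene, as did 9 of the 10 of Ubr3. Of 2610005L07Rik 10 of 34 secondary probes fell (6 without mTR-/-G4 sample b), and of Mtm1, a lipid phosphatase, 7 of 28. None of the secondary probes of Hnrnpa3 (21 probes, an RNA-binding protein), Ap3d1 (18, a subunit of a vesicle coat), 4933409K07Rik (13), Ubr3 (10), Rn28s1 (9) or Ssty2 (9) was called, although 19 of the Hnrnpa3 probes also stood elsewhere. E330016L19Rik had all 23 secondary probes at its own place, each with a positive difference, and 2 of them rose, though none did with the arrays centred or given the same distribution. With the acinar marker mean as a covariate 7 probes of Sgip1, 1 of Slc38a6, 4 of Cd209c, 2 of Gm4759, 1 of Gm6710, 1 of Mtm1 and 0 of 2610005L07Rik fell.

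**Figure D3:**
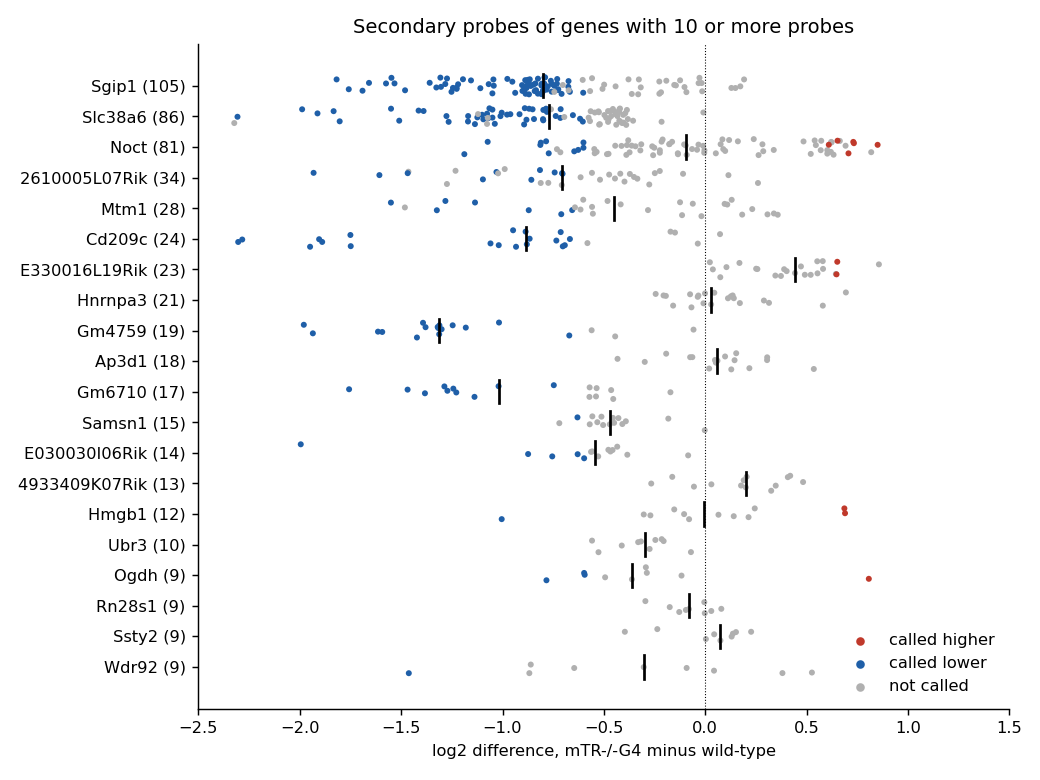
Log2 difference (mTR-/-G4 minus WT) of each secondary probe of the 20 genes with 10 or more own probes, with the number of secondary probes in brackets. Blue points fell, red points rose, grey points were not called, and the black bar is the gene's median, from -1.31 in Gm4759 to 0.44 in E330016L19Rik.

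To show where parts of a gene moved apart, the signal of the brightest probe was subtracted from that of each secondary probe on each array, and the difference was compared between genotypes. Of the 5158 pairs, 298 (5.78%) were higher and 258 (5.0%) lower in mTR-/-G4 islets, in 407 genes in all. None had an adjusted p under 0.05 by limma with Benjamini-Hochberg adjustment (smallest 0.108), while 783 (15.2%) had an unadjusted p under 0.05. The methods' t-test gave 595 pairs with an unadjusted p under 0.05 and 1 after adjustment. With the arrays given the same distribution again, 179 pairs were higher and 354 lower, and without mTR-/-G4 sample a 474 were higher and 375 lower. Across the 5158 pairs the differences of the secondary and the brightest probe had a Pearson correlation of 0.44, a description over probes that share arrays and, within a gene, the same brightest probe. It was 0.61 in the 25% of pairs closest in brightness and 0.30 in the 25% farthest apart.

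Both probes of a pair fell together in 159 pairs and rose together in 10. In 262 pairs the secondary probe fell and the brightest was not called, and in 112 it rose alone. Pairs with the secondary probe on the opposite strand and the brightest on the gene's own strand were higher in 13.2% and lower in 2.12% of 378, beside 5.08% and 5.56% of the 1438 pairs with both on the gene's strand. The median of all secondary probes on the opposite strand was log2 4.26. Pairs whose secondary probe was not above the table median were higher in 6.51% and lower in 3.37% of 2581. Strand was not tested apart from brightness.

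**Figure D4:**
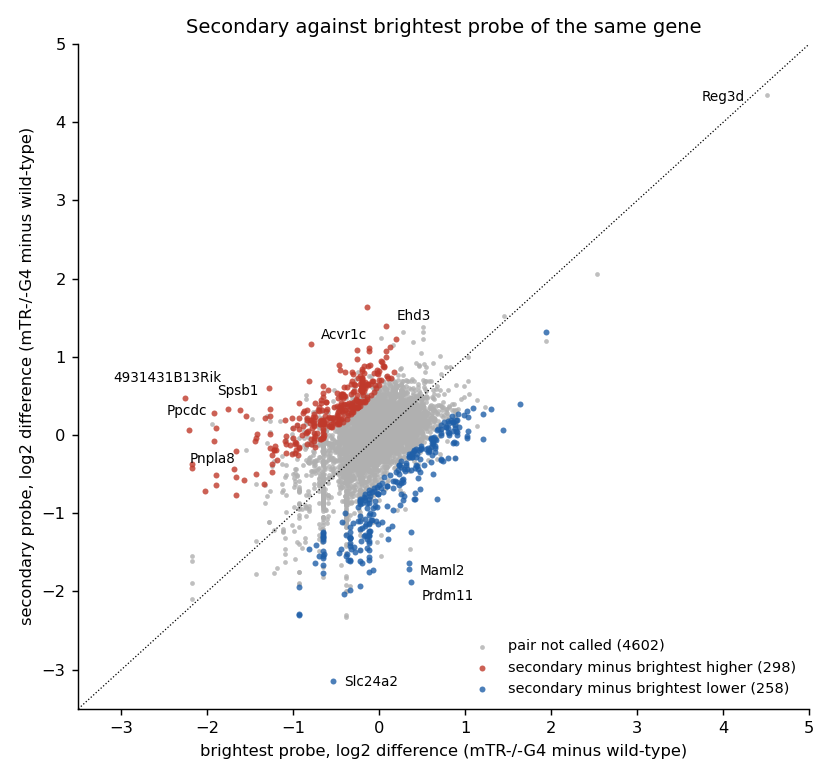
Log2 difference between genotypes (mTR-/-G4 minus WT) of each secondary probe against that of its gene's brightest probe, for 5158 pairs. Red pairs (298) were higher and blue pairs (258) lower in the test of secondary minus brightest, grey pairs were not called, and the dotted line marks equal differences.

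The calcium exchanger genes held the most negative pair. Slc24a2 encodes an exchanger of sodium for calcium and potassium, and its probe 3 was at log2 7.32, 8.31 and 9.18 in WT and 5.31, 4.80 and 5.28 in mTR-/-G4 samples. This was the most negative difference of any secondary probe, -3.14 ± 0.43, with every mTR-/-G4 sample far below the lowest WT sample. Its probe 1 was at 8.97, 9.20 and 9.56 against 8.94, 8.54 and 8.63 and was not called, so the pair differed by -2.60 ± 0.32 (adjusted p = 0.108, limma with Benjamini-Hochberg adjustment). Probe 2, at the gene's own place, fell by 0.97, while probes 1 and 3 stand side by side in rows whose place was not settled. With the acinar covariate the pair was at -1.45 and still called, and probe 3 itself, at -1.89, was not.

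Slc8a1, the sodium-calcium exchanger of the plasma membrane, moved apart less. Its probe 2 was at 6.43, 6.77 and 7.02 in WT and 5.94, 5.83 and 5.82 in mTR-/-G4 samples and differed by -0.88 ± 0.16, whereas probe 1 was at 7.10 to 7.19 and 6.53 to 7.17 and was not called. The pair difference of -0.65 ± 0.22 lost its call without WT sample b (-0.66) or c (-0.51) or mTR-/-G4 sample a (-0.57) or c (-0.56).

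Maml2, a coactivator of Notch signalling, showed the split within 1 gene at its own place. Probe 4 was at log2 6.06, 6.36 and 6.31 in WT and 4.80, 4.43 and 4.35 in mTR-/-G4 samples, and probe 5 at 6.18, 5.84 and 6.00 against 4.54, 3.77 and 4.78. Every mTR-/-G4 sample lay below every WT sample, the differences were -1.72 ± 0.15 and -1.64 ± 0.26, and probe 4 shared the smallest adjusted p of the secondary probes, 0.0662, with Pias2 probe 3 (limma with Benjamini-Hochberg adjustment). Probe 1 was at 8.73, 8.92 and 8.41 in WT and 9.08, 9.41 and 8.60 in mTR-/-G4 samples, and the pairs differed by -2.06 ± 0.26 and -1.98 ± 0.45. With the acinar marker mean as a covariate the pair of probe 4 was at -1.80 and still called, and that of probe 5, at -1.74, was not.

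Elavl1 encodes HuR, an RNA-binding protein that stabilizes messages. Its probe 2 was at log2 6.14, 6.50 and 6.72 in WT and 5.12, 5.50 and 5.43 in mTR-/-G4 samples. It fell, with a difference of -1.10 ± 0.18, while probe 1 stayed between 8.52 and 8.66 in all 6 samples and probe 3, at 0.57 ± 0.34, was not called. The pair of probes 2 and 1 differed by -1.07 ± 0.21 (adjusted p = 0.172, limma with Benjamini-Hochberg adjustment). Ern1, the sensor IRE1 of unfolded proteins in the endoplasmic reticulum, had a probe 2 at 9.74, 9.98 and 10.25 in WT and 9.15, 9.08 and 9.30 in mTR-/-G4 samples. It was called lower at -0.81 ± 0.15 against -0.16 ± 0.11 for probe 1, which was not called, and the pair difference of -0.64 ± 0.18 lost its call without WT sample c (-0.50). With the acinar covariate the pairs of Elavl1 (-0.36), Ern1 (-0.22) and Slc8a1 (-0.21) were not called.

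Further negative pairs at the gene's own place were in Gpd2, the mitochondrial glycerol phosphate dehydrogenase (probe 3, -1.66 ± 0.38), Map2, a protein of microtubules (probe 3, -1.62 ± 0.31), and the zinc finger gene Zfp729a (probe 3, -1.44 ± 0.31). In each of these genes the brightest probe was not called. With the acinar covariate the pair of Map2 was still called (-2.40), and those of Gpd2 (-0.77) and Zfp729a (-0.54) were not. In Prdm11 both probes that fell, by 1.24 and 1.88, stand on other chromosomes. Its 4 secondary probes at the own place were not called, but the pair of 1 of them, probe 5, was called lower (-0.81). Of Pde5a, the phosphodiesterase of cyclic GMP, 3 of 4 secondary probes fell, by 0.66, 0.93 and 1.44, and the brightest was at -0.14. The call of Pde5a probe 3, on another chromosome, was lost without WT sample c or mTR-/-G4 sample c (both -0.57). Pde5a probes 3, 4 and 5 were at -0.64, -0.29 and -1.11 with the acinar covariate, and not called.

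In the most positive pairs the brightest probe fell and the secondary probe did not. Ppcdc encodes an enzyme of coenzyme A synthesis. Its probe 1, on another chromosome, was at log2 7.42, 8.26 and 8.85 in WT and 6.92, 5.07 and 5.88 in mTR-/-G4 samples, whereas probe 2, at the gene's own place, stayed at 5.10, 5.13 and 5.21 and at 5.17, 5.24 and 5.24. The pair differed by 2.29 ± 0.53 (adjusted p = 0.18, limma with Benjamini-Hochberg adjustment). Spsb1, an adaptor of a ubiquitin ligase, had the same arrangement, with probe 1 elsewhere at -1.76 ± 0.30 and probe 2 at its gene's place at 0.33 ± 0.12. The phospholipase gene Pnpla8 was at -1.92 ± 0.23 in probe 1 and -0.08 ± 0.09 in probe 2, whose 6 values lay between 6.20 and 6.35. In 4931431B13Rik probe 1 stood at its gene's place and was at -2.26 ± 0.36, and probe 2, with a place not settled, was at 0.47 ± 0.15. With the acinar covariate the pair of Pnpla8 probe 2 was still called (1.62), and those of Ppcdc (2.38), Spsb1 (1.44) and 4931431B13Rik (1.37) were not.

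The brightest probe stood elsewhere in 530 genes, and 456 of them had a secondary probe at their own place. The brightest probe was called lower in 29 of the 456 and higher in 10, and the brightest secondary probe at the gene's own place was not called in 26 of the 29 and in 10 of the 10. Of all secondary probes at their gene's own place, 2989 of 3237 were not called, so these counts lie near that share. Both were lower in 2 genes, Cd209c and Etv5, which are named after their values were seen. Etv5 encodes a transcription factor, and its probe at the own place differed by -0.72 ± 0.14 beside -2.03 ± 0.29 for the brightest. In Zfp488 the probe at the own place rose. In 6 more genes the probe at the own place was called and the brightest was not.

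**Figure D5:**
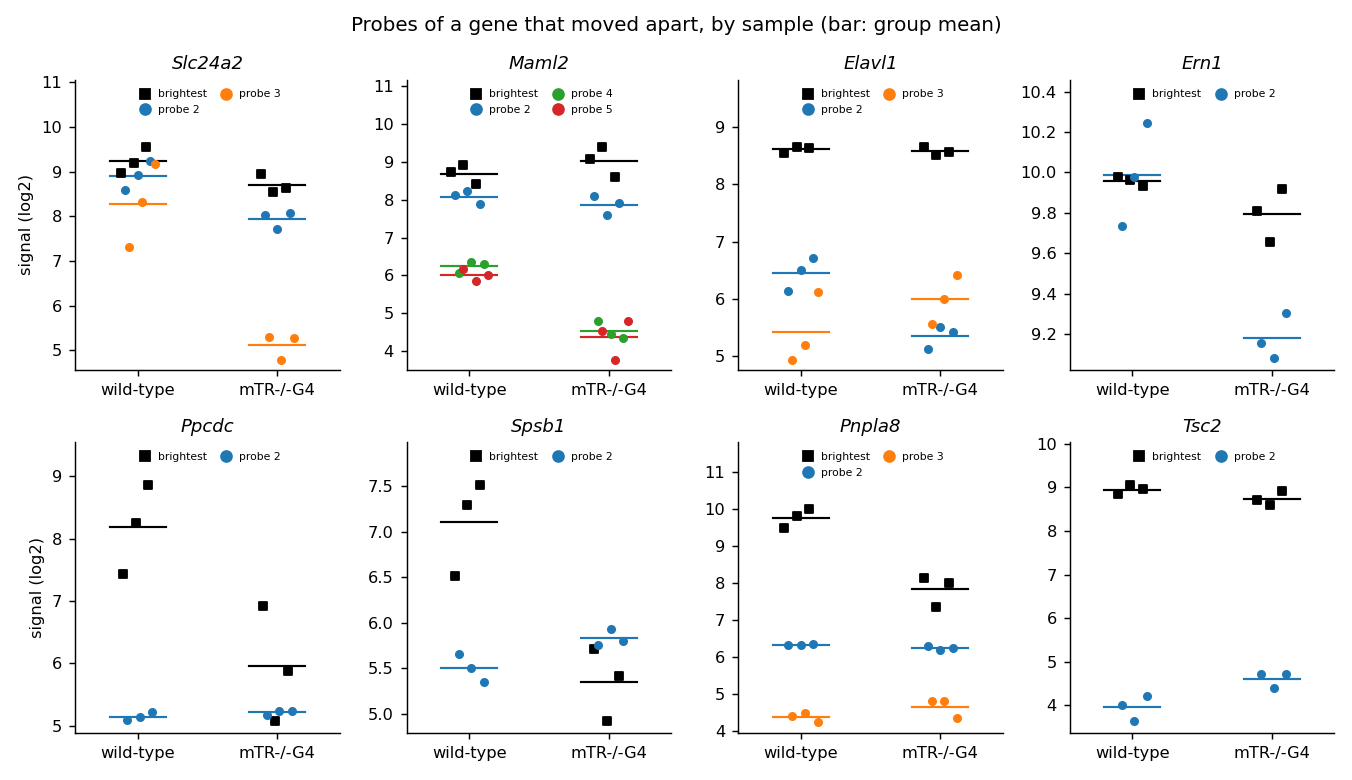
Log2 signal of the brightest probe (black squares) and of secondary probes (coloured circles) of 8 genes in the 3 WT and 3 mTR-/-G4 samples, with a bar at each group mean. In the upper row a secondary probe fell more than the brightest, as in Slc24a2 probe 3 from 7.32 to 9.18 down to 4.80 to 5.31, in Ppcdc, Spsb1 and Pnpla8 the brightest probe alone fell, and in Tsc2 the secondary probe rose.

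Opposite calls within a gene were few, but in 4266 of the pairs neither probe was called. Whether they were fewer than the call rates alone would give was not tested. In 4 of 5158 pairs the secondary probe rose and the brightest fell, and in 0 the reverse held. Acvr1c, the activin receptor ALK7, had probe 5 at log2 6.07, 5.33 and 6.49 in WT and 6.23, 7.67 and 7.48 in mTR-/-G4 samples, and probe 1 at 7.67, 7.17 and 7.23 against 6.79, 6.13 and 6.77. Probe 5 rose by 1.16 ± 0.43 with overlapping groups and probe 1 differed by -0.79 ± 0.22 without overlap, and the other 5 secondary probes of Acvr1c were not called. In 4930571B16Rik probe 4 rose by 0.60 while probes 1, 2 and 3 fell by 1.28, 1.11 and 1.11. In Gon4l, a nuclear protein, probe 7 rose by 0.68 while probes 1, 5 and 6 fell by 0.82, 0.97 and 1.46, and in Zfp488, a transcription factor, probe 2 rose by 0.63 while probe 1, on another chromosome, fell by 0.66. The call of each of these increases was lost with single samples left out: Acvr1c (0.85 to 1.22), Gon4l probe 7 (0.46 to 0.63) and the fall of Gon4l probe 5 (-0.61 to -0.99) in 4 of the 6 cases, 4930571B16Rik (0.35 to 0.64) in 4 and Zfp488 (0.51 to 0.58) in 3. These cases were the leaving out of WT sample a, of WT sample b, of mTR-/-G4 sample b and of mTR-/-G4 sample c for Acvr1c and Gon4l probe 7, of WT sample b or c or mTR-/-G4 sample a or c for Gon4l probe 5, of any WT sample or mTR-/-G4 sample c for 4930571B16Rik, and of WT sample b or mTR-/-G4 sample b or c for Zfp488. The number of such pairs was 0 without WT sample b, 2 without WT sample c, 9 without mTR-/-G4 sample a and 1 without mTR-/-G4 sample b.

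The genes that the study lists for islets were chosen on these samples, so the direction of their probes is no independent evidence. The 3 calcium homeostasis probes, those of Slc24a2 and Slc8a1, all fell, and the 3 acute phase probes, those of Reg3a, Reg3b and Tsc2, all rose. Tsc2 encodes tuberin, which restrains the growth kinase complex mTORC1. The secondary probe of Tsc2 was at log2 4.01, 3.63 and 4.21 in WT and 4.71, 4.38 and 4.71 in mTR-/-G4 samples, all under the table median, while probe 1 was at 8.85, 9.05 and 8.96 against 8.70, 8.59 and 8.91. The pair differed by 0.87 ± 0.21 and probe 2 by 0.65 ± 0.17, and the latter call was lost without WT sample b (0.49). Both secondary probes of Pde4d, a phosphodiesterase of cyclic AMP, fell (-0.73 ± 0.13 and -0.63 ± 0.12) where the brightest probe, at -1.13 ± 0.48, was not called, and the call of Pde4d probe 3 was lost without WT sample c (-0.53). Fitted with the acinar covariate, Tsc2 (0.57, and its pair 0.52) and Pde4d probes 2 and 3 (-0.65 and -0.51) were not called.

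Among the channel and fusion genes of the study, the brightest probes of Scn3a, Hcn3 and Rims2 were called lower and their secondary probes were not called. None of the 9 secondary probes of Kcnh6, Hcn3 and Scn3a was called, though 4 of their pairs were higher. Scn3a, a voltage-gated sodium channel, was at -0.89 ± 0.21 in probe 1 and was at 0.11, 0.28 and -0.38 in the others, which lay at log2 4.08 to 4.53 on average. Hcn3, a channel opened by hyperpolarization, was at -0.75 ± 0.28 in probe 1 and 0.23 ± 0.16 in probe 4, and that pair difference of 0.98 ± 0.32 lost its call without WT sample b (0.69) or mTR-/-G4 sample b (0.80). Hcn3 probe 2 was at -0.48 ± 0.17, with every mTR-/-G4 sample below every WT sample, while the genotypes overlapped in probe 1. The pair difference of Hcn3 probe 2, 0.27 ± 0.19, was not called. Rims2, a scaffold of the release site, was at -0.60 ± 0.13 in probe 1 and 0.14 ± 0.14 in probe 2. The 3 secondary probes of Kcnh6, a voltage-gated potassium channel, stand on other chromosomes, and its brightest probe, at -0.35 ± 0.19, was not called. The pairs of Hcn3 probe 4 (0.07), Rims2 (0.36) and Scn3a probe 2 (0.79) were not called with the acinar covariate.

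The wider lists are read beside the 8.16% of all secondary probes that fell and the 2.44% that rose, and none was tested against that share. Of 23 secondary probes of potassium channel genes 3 fell, all of Kcnn3, and none rose. Of 18 of cyclic nucleotide phosphodiesterases 5 fell (those of Pde4d and Pde5a), with a median of -0.16 beside 0.04 over all secondary probes. Of 27 of imprinted genes 5 fell, 4 of Kcnq1ot1 and 1 of Rian, and 2 rose, of Nnat (0.79) and Peg10 (0.87). The calls of Rian (-0.43 to -0.64, without WT sample b or c or mTR-/-G4 sample b) and Peg10 (0.50 to 0.94, without WT sample c or mTR-/-G4 sample a or b) were lost with 1 sample left out. Of 91 of splicing regulators, 47 of which stood elsewhere, 3 fell (1 probe each of Elavl1, Mbnl1 and Rbm6) and 1 rose, a probe on another chromosome labelled Srsf2 (0.97 ± 0.16). Of 25 of granule docking and fusion genes 2 rose and none fell, among them Rab3c probe 2, a small GTPase of secretory vesicles, which was at log2 5.0, 4.93 and 4.96 in WT and 5.81, 5.72 and 6.03 in mTR-/-G4 samples (0.89 ± 0.11). With the acinar covariate Rab3c (0.99) and Nnat (1.0) were still called, and Srsf2 (0.58), Pax6 (0.31), Peg10 (-0.37) and Rian (-0.44) were not. Of the 8 probes of islet identity genes 1 rose, Pax6 probe 5 (0.73 ± 0.23), a transcription factor of endocrine cells, and its call was lost without WT sample a (0.66) or c (0.59) or mTR-/-G4 sample a (0.53). Of the secondary probes of duct (9), endothelial (4), leukocyte (4) and stellate (1) markers 0 were called, and the 1 of neuron and Schwann cell markers, that of Tubb3, rose.

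The mean distance of the secondary probes from the brightest was compared per array. The mean of secondary minus brightest was log2 -1.72, -1.71 and -1.69 in the WT samples and -1.71, -1.64 and -1.70 in the mTR-/-G4 samples. The groups overlapped, and the difference of 0.02 gave p = 0.5 (two-sided exact permutation test, where 3 against 3 cannot give less than 0.1). With the arrays given the same distribution the sign turned (-0.07), and the groups stood apart, at -1.68, -1.66 and -1.64 in WT and -1.69, -1.78 and -1.72 in mTR-/-G4 samples (p = 0.1, two-sided exact permutation test, the smallest possible). In the pairs whose secondary probe was above the table median it also turned (-0.03), with the same p of 0.1 by that exact test and no overlap.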

How the data were processed

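Total RNA of islets purified with collagenase was hybridized to Affymetrix mouse exon arrays, 3 WT and 3 mTR-/-G4. The deposited table holds log2 signals of 34502 transcript clusters, called probes here, which the authors normalized by RMA in Partek. The submitters' processing notes name mm9, and the read-out has no depth, so the number of arrays limits precision. Symbols came from the platform annotation: 25362 probes had 1 symbol, 2238 several and 6902 none, and only the first kind entered. Each probe's place was read from the symbols of 10 neighbouring rows, with a distance of 50 genes in RefSeq order (GRCm38.p6) as the limit. limma 3.58.1 in R 4.3.3 was run over the whole table, without a block, and over the pair differences, with Benjamini-Hochberg adjustment. The fit was also run on simulated data with independent noise in each probe. That simulation held no differences between whole arrays, so it cannot show how the fit handles them. SE is limma's moderated standard error.

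The members and gene lists were chosen with earlier results of these data known. Probes named were the most positive and negative pairs (10 and 10 of the brighter pairs, 5 and 5 of all), the 10 largest increases and decreases without overlap, opposite calls, the study's genes, the genes with most probes, genes with 3 or more secondary probes all called in 1 direction, and up to 4 per list. Not every gene this takes is described. Alternatives were the methods' t-test, another quantile normalization, the sample letter as a block, a robust prior, the acinar marker mean, centring, a 2-fold threshold, brighter probes, other reference probes and each sample left out. Those on place and on genes with many probes were chosen after seeing the data.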

Additional observations from a re-analysis of the deposited data

How the results depend on the processing

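The count of secondary probes that rose (126) was 69 by the methods' t-test, 20 at a 2-fold threshold, 45 among brighter probes and 72 with centred arrays, and 92 to 269 with 1 sample left out. The count that fell (421) was 255 by the t-test, 161 with the acinar marker mean, 183 at 2-fold, 219 without genes of 10 or more probes and 163 at the gene's own place, and 323 to 515 with 1 sample left out. Pairs called higher (298) numbered 160 by the t-test, 179 with quantile normalization, 141 with the acinar mean, 79 at 2-fold and 130 among brighter probes, and 209 to 474 with 1 sample left out. Pairs called lower (258) numbered 157 by the t-test, 106 with the acinar mean, 76 at 2-fold, 171 among brighter probes and 160 at the own place, and 195 to 375 with 1 sample left out. Opposite calls (4) numbered 1 by the t-test, with quantile normalization, among brighter probes, with centring and at the own place, 0 at 2-fold, and 0 to 9 with 1 sample left out. The mean difference per array (0.02) was -0.0727 with quantile normalization and -0.0258 among brighter probes, and 0.000731 to 0.0386 with 1 sample left out. The causes were not tested.

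Of 114 described calls 81 held with any 1 sample left out, 98 held with quantile normalization, 86 by the t-test and 31 with the acinar mean. The acinar mean did not overlap between the genotypes, so its fit cannot tell acinar signal from genotype. The sign turned with the acinar mean in 8: Peg10 (-0.37), Gon4l probe 5 (0.16), Kcnn3 probe 2 (0.29) and probe 4 (0.0260), Gm14408 probe 4 (0.19), 4930470H14Rik probe 3 (0.0575), Reg3b (-1.08) and Reg3a (-0.91). The labels do not say that the sample letters pair the samples. The correlations of same-lettered deviations were 0.04, -0.16 and 0.11, which cannot settle whether samples of 1 letter share a batch. With the replicate letter as a block 158 secondary probes rose and 458 fell, 545 of the 547 calls without it were shared, 40 had an adjusted p under 0.05 by limma, and 304 pairs were higher and 271 lower. Probes standing elsewhere numbered 1188 with more rows read and 1152 with a wider limit, against 1198. A dim probe has no bound here, since the table gives no background signal.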

Other observations

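Secondary probes on the strand opposite to their gene made up 462 of the 5158, of which 23 (4.98%) rose and 18 (3.90%) fell. Among all 34502 probes the shares were 2.62% and 3.61%. Of the 2581 secondary probes not above the median, 3.14% rose and 1.94% fell. Whether these shares differ was not tested. Ehd3 had a pair of probes on the opposite strand. Its probe 2 was at log2 4.39, 3.51 and 3.97 in WT and 4.90, 5.54 and 5.61 in mTR-/-G4 samples, while its probe 3 lay between 3.69 and 4.34 in all samples and its probe 1 between 6.80 and 7.02. The increase stood in 1 of the 2 probes of that strand, and both were dimmer than the median probe of the table.

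Among the splicing regulators, Mbnl1, whose protein controls exon choice, had probe 2 at log2 6.58, 6.92 and 7.60 in WT and 6.39, 6.44 and 6.34 in mTR-/-G4 samples (-0.64 ± 0.24). That call was lost without any one sample other than WT sample a (-0.36 to -0.70). Rbm6, an RNA-binding protein, had a brightest probe on another chromosome at -0.07 ± 0.12, while its secondary probe at the gene's own place was called lower at -0.72 ± 0.18, though not without mTR-/-G4 sample b (-0.58). Srsf2, a splicing factor rich in serine and arginine, had the opposite arrangement: its brightest probe, at the gene's own place, was at -0.25 ± 0.19 and the probe that rose stood on another chromosome.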
